A study of Arabidopsis thaliana with 31 samples.

Results

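The regions described here are photolesion regions whose midpoint lay in no gene, transposable element (TE) or transposable element gene of the annotation, and are called intergenic regions. They were selected from 5 lists, 1 per genotype, of regions enriched by immunoprecipitation of UV-damaged DNA (IPOUD). In all, 2081 of 7269 listed regions were intergenic. Their number was 333 of 999 for *uvr3 phrI*, 332 of 1166 for *ddb2*, 455 of 1260 for *dcl4*, 75 of 259 for *ago1* and 886 of 3585 for WT plants.

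All plants were Arabidopsis of the Col-0 accession. The *uvr3 phrI* plants carry insertions (WiscDsLox lines) in both photolyase genes. The single mutants carried the alleles *ddb2-3*, *dcl4-2* and *ago1-27*, the last a hypomorph. Leaves of 18-day-old plants according to the labels (older according to the methods) received a UV-C dose of 3000 J/m2, and according to the methods DNA was taken immediately afterwards (time point 0). Leaves of 2 biological replicates were pooled, and each list joins the regions found with an anti-CPD and an anti-6,4 PP antibody against 1 input, that of WT plants. With 1 list per genotype there are no replicates and no test between genotypes. The 95% intervals given below reflect counting error alone, by the Clopper-Pearson method for shares and by ranks of the ordered values for medians. Reads per region are not in the lists, and the read statistics of the study list the fewest mapped IP reads for *ago1* plants, so the depth behind a fold enrichment is unknown.

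UV-C light joins neighbouring pyrimidines, at CC, CT, TC and TT, either as 6,4 photoproducts (6,4 PPs) or as cyclobutane dimers (CPDs). Photolyases revert them directly with light, PHR1 acting on CPDs and UVR3 on 6,4 PPs. DDB2 recognises lesions for global genome repair, and DCL4 and AGO1 belong to small RNA pathways that act with it. A stretch made of pyrimidines alone on 1 strand offers an uninterrupted series of di-pyrimidines, and its complement is a purine stretch.

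The intergenic regions with the highest fold enrichment (IP over WT input) recurred between genotypes. The 3 highest of each mutant held long uninterrupted pyrimidine or purine tracts, while the 3 highest in WT plants did not. This contrast did not extend to the 10 highest, of which 6 held a tract of at least 20 nt for WT plants, against 6 for *uvr3 phrI*, 6 for *ddb2*, 8 for *dcl4* and 7 for *ago1*. Some of the highest regions are shown because the values below turn on them. They are read from the TAIR10.1 reference on the plus strand, with tracts of at least 20 nt in capitals. Each is named by its nearest protein-coding gene. The first 4 are whole listed regions of *uvr3 phrI* or *ddb2* plants, and the last is the central 200 bp of the region with the highest fold enrichment in WT plants.
*NUB1* (AT2G12550), chr2:5099923-5100069: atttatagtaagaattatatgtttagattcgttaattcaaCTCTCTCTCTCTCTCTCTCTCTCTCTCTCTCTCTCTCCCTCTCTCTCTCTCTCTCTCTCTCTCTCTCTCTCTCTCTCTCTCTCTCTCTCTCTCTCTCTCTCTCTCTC
AT3G30247, chr3:11895371-11895459: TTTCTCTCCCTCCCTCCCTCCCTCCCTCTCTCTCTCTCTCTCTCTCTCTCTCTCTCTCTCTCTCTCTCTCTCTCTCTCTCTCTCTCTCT
*NAC067* (AT4G01520), chr4:659402-659544: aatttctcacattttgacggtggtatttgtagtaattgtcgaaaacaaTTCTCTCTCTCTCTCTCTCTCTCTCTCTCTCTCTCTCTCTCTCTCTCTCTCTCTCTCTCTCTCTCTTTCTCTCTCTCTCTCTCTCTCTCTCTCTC
AT3G27510, chr3:10188094-10188182: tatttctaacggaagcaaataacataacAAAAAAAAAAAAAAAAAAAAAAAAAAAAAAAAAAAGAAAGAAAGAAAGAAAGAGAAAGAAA
AT3G48344, chr3:17901304-17901503: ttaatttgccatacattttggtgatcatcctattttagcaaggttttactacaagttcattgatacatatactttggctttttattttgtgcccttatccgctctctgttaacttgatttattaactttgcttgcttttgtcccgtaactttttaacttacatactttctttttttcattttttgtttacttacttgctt

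The *NUB1* region lay in the pericentromere of chromosome 2, at 14872 bp from *NUB1*, which encodes a protein with a ubiquitin-associated domain, and 97 bp from an ATLANTYS1 element. It had the highest fold enrichment of all intergenic regions in each mutant. The highest value at this locus was 25.7 for *uvr3 phrI*, 20.9 for *ddb2*, 17.6 for *dcl4* and 21.2 for *ago1*, against 10.6 for WT plants. The longest tract of the locus measured 139 nt. The AT3G30247 region reached 17.2 for *uvr3 phrI*, 13.4 for *ddb2*, 11.9 for *dcl4* and 13.9 for *ago1*, against 9.19 for WT plants. The region upstream of *NAC067*, a gene for a NAC domain transcription factor, reached 16.2 for *uvr3 phrI*, 16.3 for *ddb2*, 13.1 for *dcl4* and 11.6 for *ago1*, against 7.37 for WT plants. At these 3 loci, whose tracts are mostly repeated CT on the printed strand, WT had the lowest value. The AT3G27510 region, a run of A followed by GAAA repeats, reached 15.5 for *uvr3 phrI*, 16.5 for *ddb2*, 11.4 for *dcl4* and 15.2 for *ago1*, against 11.7 for WT plants. The newer RefSeq gene models place the midpoint of its *ddb2* region in a protein-coding gene.

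The region with the highest value in WT plants had no such tract. Near AT3G48344, where the longest tract of the locus was 13 nt, the fold enrichment was 11.01 for *uvr3 phrI*, 6.19 for *ddb2*, 8.23 for *dcl4* and 6.69 for *ago1*, against 14.3 for WT plants. The second in WT plants, near AT1G49940 with a longest tract of 15 nt, showed 9.20 for *uvr3 phrI*, 7.24 for *ddb2*, 10.8 for *dcl4* and 5.86 for *ago1*, against 13.2 for WT plants. At both loci WT had the highest of the 5 values. The newer RefSeq gene models place the midpoint of the WT region near AT1G49940 in a protein-coding gene. The third in WT plants was a region at 1852 bp from AT4G18425, with a fold enrichment of 11.8.

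**Figure D1:**
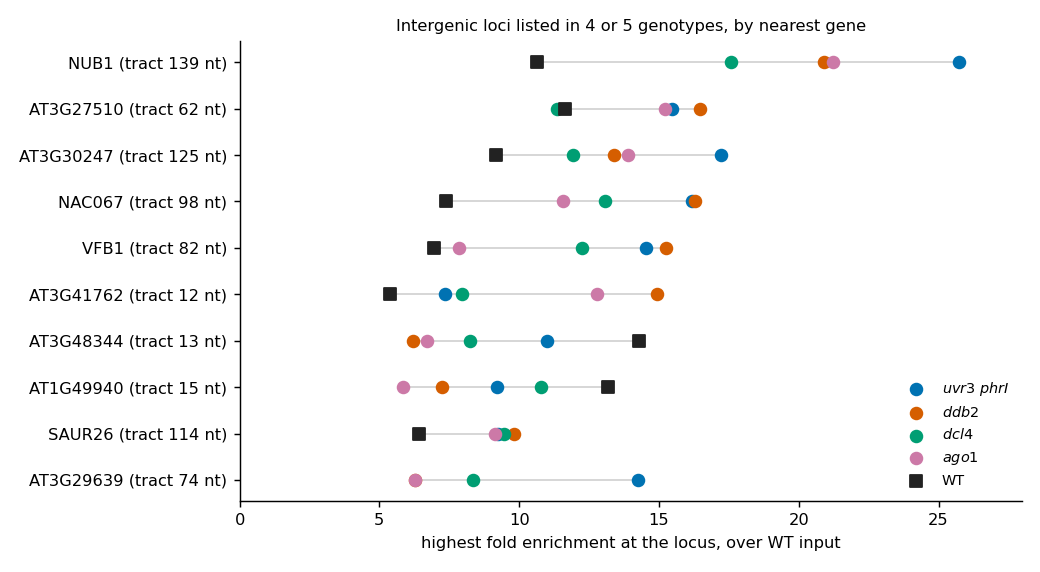
Highest fold enrichment over the WT input (x axis, linear) of the 10 intergenic loci with the highest mean among those listed in 4 or 5 genotypes, one row per locus named by its nearest gene with its longest tract, circles for mutants and squares for WT. At *NUB1* the mutants lie between 17.6 and 25.7 and WT at 10.6, while at AT3G48344 and AT1G49940 WT lies above every mutant.

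Tracts of at least 20 nt, a measure chosen after the values had been seen, were more frequent in intergenic regions of every genotype than in the intergenic genome cut into windows of the median region length of that list. The share of regions with a tract was 10.2% for *uvr3 phrI* (95% CI 7.18 to 14.0%), 10.8% for *ddb2* (7.71 to 14.7%), 10.11% for *dcl4* (7.50 to 13.3%), 29.3% for *ago1* (19.4 to 41.0%) and 16.8% for WT plants (14.4 to 19.5%). The corresponding windows held a tract in 2.39%, 1.77%, 2.47%, 5.20% and 4.04% of cases in the same order of genotypes, and all 5 intervals lay above their windows. Raising the minimum to 30 nt left 3.90% of regions in *uvr3 phrI*, 6.02% for *ddb2*, 4.84% for *dcl4*, 21.3% for *ago1* and 3.95% for WT plants. The windows then held a tract in 0.225%, 0.165%, 0.236%, 0.556% and 0.406% of cases. The excess was 17.4-fold for *uvr3 phrI* (95% CI 9.33 to 29.3), 36.6-fold for *ddb2* (22.6 to 55.5), 20.5-fold for *dcl4* (12.96 to 30.7), 38.4-fold for *ago1* (22.9 to 58.1) and 9.74-fold for WT plants (6.82 to 13.4). The intervals of the mutants overlapped one another, and that of WT plants overlapped those of *uvr3 phrI* and *dcl4*. Median region lengths were 140 bp for *uvr3 phrI*, 108 bp for *ddb2*, 145 bp for *dcl4*, 289 bp for *ago1* and 227 bp for WT plants, and longer regions have more room for a tract. Within a list the windows all had the median length, while regions reached 552, 553, 1703, 621 and 1763 bp in the same order. What this contributes to the excess over windows was not tested.

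**Figure D2:**
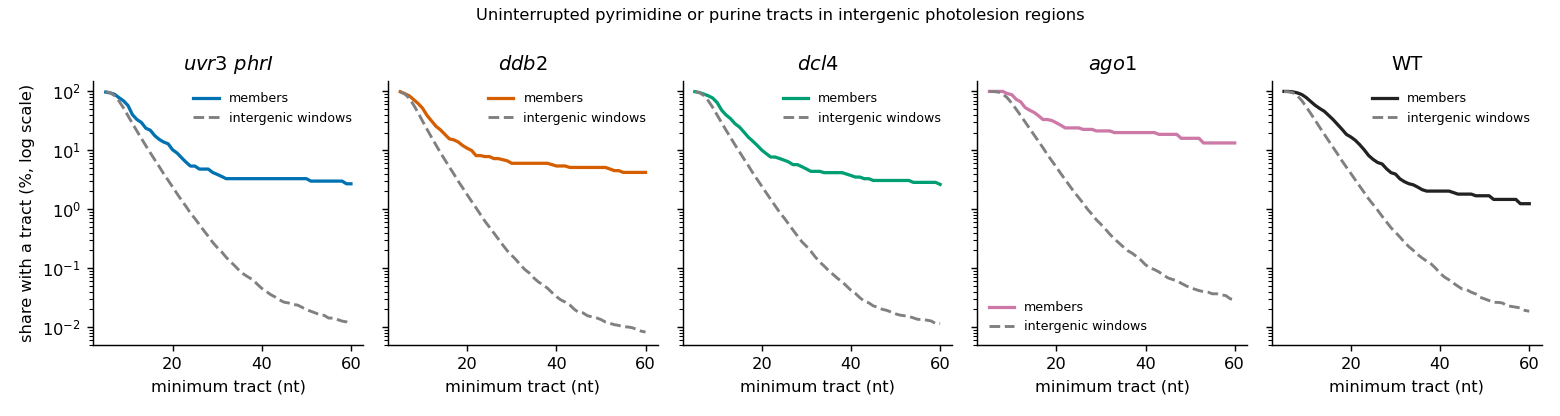
Share of intergenic regions (solid, y axis in percent on a log scale) and of intergenic windows of the same median length (dashed) that hold an uninterrupted pyrimidine or purine tract of at least the length on the x axis (nt), one panel per genotype. In every panel the solid line lies above the dashed line at 20 and 30 nt, with 21.3% of *ago1* regions and 0.556% of windows at 30 nt.

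Regions with a tract had a higher median fold enrichment than those without. In *dcl4* plants the medians were 6.13 with a tract of at least 20 nt (95% CI 5.19 to 6.90) and 4.80 without (4.67 to 4.91). In *ddb2* plants they were 5.74 (5.28 to 6.61) and 4.85 (4.73 to 5.02), and in *ago1* plants 6.60 (6.26 to 9.64) and 5.66 (4.999 to 6.04). In these 3 mutants the intervals did not overlap. They overlapped in *uvr3 phrI* plants, with 5.58 (5.16 to 7.15) and 5.01 (4.85 to 5.18), and in WT plants, with 4.73 (4.54 to 5.03) and 4.54 (4.45 to 4.64). All these intervals count overlapping regions of a list separately and may be too narrow. With overlaps merged, tract regions numbered 39 instead of 46 for *dcl4*, 32 instead of 36 for *ddb2* and 15 instead of 22 for *ago1* plants. Median fold enrichments with and without a tract were not computed for the merged lists. Of the 10 regions with the highest fold enrichment, 6 for *uvr3 phrI*, 6 for *ddb2*, 8 for *dcl4*, 7 for *ago1* and 6 for WT plants held a tract. Over all regions the rank correlation of tract length and fold enrichment was weak, from 0.14 in 333 *uvr3 phrI* regions to 0.38 in 75 *ago1* regions. The rank correlation of region length and fold enrichment was 0.17 for *uvr3 phrI*, 0.22 for *ddb2*, 0.15 for *dcl4*, 0.22 for *ago1* and 0.31 for WT regions, and so above that of tract length (0.14, 0.14 and 0.17) in *uvr3 phrI*, *ddb2* and WT plants. Tracts were also found in the other classes of regions. TE regions held one in 8.43% of cases for *uvr3 phrI*, 12.03% for *ddb2*, 9.60% for *dcl4*, 23.9% for *ago1* and 16.4% for WT plants. Regions in protein-coding genes held one in 8.43% of cases for *uvr3 phrI* (95% CI 5.68 to 11.96%), 7.05% for *ddb2* (5.09 to 9.48%), 9.42% for *dcl4* (7.003 to 12.3%), 14.1% for *ago1* (7.74 to 22.95%) and 11.7% for WT plants (10.3 to 13.1%). In WT plants this interval lay below that of intergenic regions, and in the mutants the intervals overlapped.

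The median di-pyrimidine frequency of the regions was only slightly above the value of the intergenic genome. Genome values in this paragraph are taken over all intergenic bases, while list values are medians over short regions, so they are unlike measures. What this contributes to the contrasts below, including those of CC and GC content, was not tested. On both strands TT, TC, CT and CC together made up a median of 27.8% of the dinucleotides in *uvr3 phrI* (95% CI 27.2 to 28.4%), 27.99% for *ddb2* (27.6 to 28.9%), 28.2% for *dcl4* (27.8 to 28.6%), 28.2% for *ago1* (27.2 to 28.9%) and 28.4% for WT regions (28.3 to 28.6%), against 26.7% over all intergenic bases. TT, the most frequent, had a median of 14.8% for *uvr3 phrI* (14.2 to 15.4%), 12.7% for *ddb2* (11.97 to 13.4%), 13.8% for *dcl4* (13.3 to 14.5%), 13.3% for *ago1* (12.04 to 13.9%) and 13.4% for WT regions (13.1 to 13.7%), against 13.0% over all intergenic bases. The interval lay above the genome value in *uvr3 phrI*, *dcl4* and WT plants. These values pool both zones. In the arms the same lists lay above the 13.2% of arm bases, at 15.5% for *uvr3 phrI*, 15.1% for *dcl4* and 13.9% for WT regions. In the pericentromere no interval lay above the 11.94% of its bases, and that of *dcl4* regions (10.98 to 11.84%) lay below it. CC was below the genome value of 2.75% in the median of every list, at 2.11% for *uvr3 phrI* (1.87 to 2.19%), 2.43% for *ddb2* (2.20 to 2.73%), 2.41% for *dcl4* (2.25 to 2.55%), 2.43% for *ago1* (2.04 to 3.00%) and 2.62% for WT regions (2.56 to 2.71%). The *ago1* interval included the genome value. The GC content of the *uvr3 phrI* regions, with a median of 30.2% (28.96 to 31.4%), was below the 31.9% of the intergenic genome, while that of *ddb2* regions was 33.9% (33.1 to 34.7%).

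The share of intergenic regions differed between lists. It was 33.3% for *uvr3 phrI* (95% CI 30.4 to 36.4%), 28.5% for *ddb2* (25.9 to 31.2%), 36.1% for *dcl4* (33.5 to 38.8%), 28.96% for *ago1* (23.5 to 34.9%) and 24.7% for WT plants (23.3 to 26.2%). Intergenic bases make up 29.8% of the nuclear genome. The intervals lay above this share in *uvr3 phrI* and *dcl4* plants and below it in WT plants, and included it in *ddb2* and *ago1* plants. Where a region had to avoid genes and TEs with every base, the share was 28.9% for *uvr3 phrI*, 24.4% for *ddb2*, 30.9% for *dcl4*, 18.5% for *ago1* and 17.1% for WT plants. The value for *uvr3 phrI* was then below 29.8%, but that genome share counts single bases and is not a matched reference for whole regions. At a fold enrichment of at least 5, the share for *ddb2* was 38.2%. Of the *ago1* intergenic regions, 64.0% met the stricter demand. The corresponding fraction of intergenic regions was 86.8% for *uvr3 phrI*, 85.5% for *ddb2*, 85.5% for *dcl4* and 69.2% for WT plants.

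The median fold enrichment of intergenic regions was 5.03 for *uvr3 phrI* (95% CI 4.92 to 5.20), 4.90 for *ddb2* (4.79 to 5.11), 4.84 for *dcl4* (4.73 to 5.004), 5.95 for *ago1* (5.56 to 6.46) and 4.58 for WT plants (4.52 to 4.68). WT had the lowest median and *ago1* the highest, and neither interval overlapped that of another genotype. The lists differ in length and in the shortest region kept (72 bp for *uvr3 phrI* and *ddb2*, 77 bp for *dcl4*, 246 bp for *ago1* and 192 bp for WT plants), and what this contributes was not tested. In *ddb2* plants, intergenic regions had a higher median than regions in protein-coding genes, which reached 4.48 (4.14 to 4.61). In the other genotypes the intervals of both classes overlapped. TE regions had a higher median than intergenic ones in *dcl4* (5.18, 5.03 to 5.38) and WT plants (4.74, 4.72 to 4.90), with intervals that did not overlap. In the other genotypes the intervals of intergenic and TE regions overlapped. Among TE regions too, *ago1* had the highest median (5.58) and WT the lowest. Among gene regions *ago1* was highest (5.42) and *ddb2* lowest. Of the intergenic regions 178 for *uvr3 phrI*, 159 for *ddb2*, 208 for *dcl4*, 53 for *ago1* and 304 for WT plants had a fold enrichment of at least 5, and 10, 9, 10, 6 and 7 in the same order had at least 10.

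**Figure D3:**
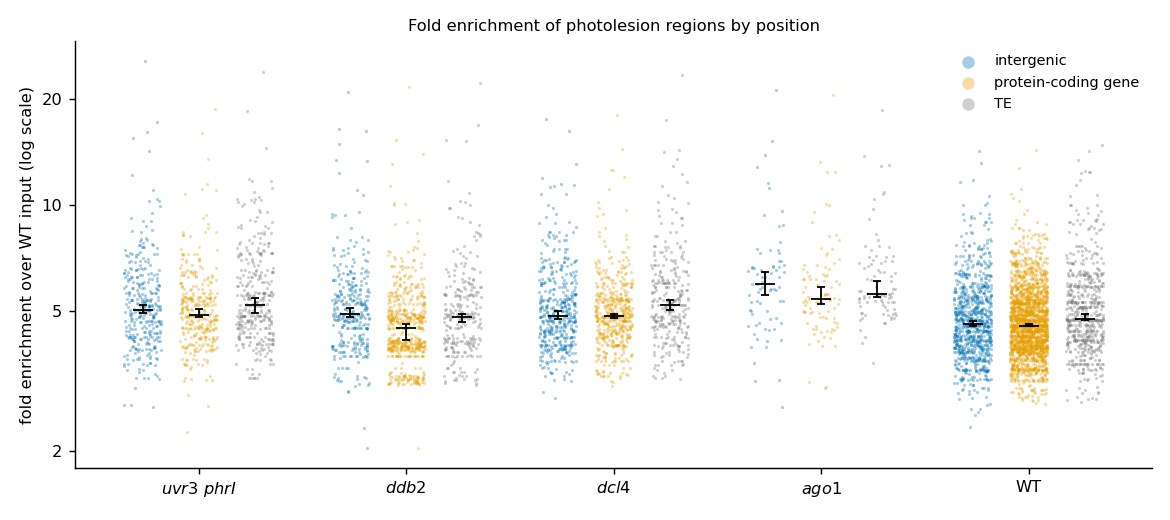
Fold enrichment over the WT input (y axis, log scale) of every listed region by genotype, as intergenic regions, regions in protein-coding genes and TE regions, with the median and its 95% interval (counting error only) as a bar with whiskers. The median of intergenic regions is highest for *ago1* plants at 5.95 and lowest for WT plants at 4.58, and the highest single value is 25.7 for *uvr3 phrI*.

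Intergenic regions were denser around the centromeres. Each pericentromere was set as the longest row of 100-kb bins whose smoothed (1 Mb) protein-coding gene coverage was below 50% of the median bin of its chromosome. These zones hold 14.7% of the intergenic bases. They held 29.4% of the intergenic regions in *uvr3 phrI* (95% CI 24.6 to 34.6%), 29.8% for *ddb2* (24.9 to 35.1%), 31.0% for *dcl4* (26.8 to 35.5%), 34.7% for *ago1* (24.0 to 46.5%) and 23.4% for WT plants (20.6 to 26.3%). Per Mb of intergenic sequence, the pericentromere held 2.42 times as many regions as the arms in *uvr3 phrI*, 2.46 times for *ddb2*, 2.60 times for *dcl4*, 3.07 times for *ago1* and 1.77 times for WT plants. The chromosomes took shares close to their intergenic length. The shares whose interval left out that length were those of chromosome 1 for WT plants (22.6%, 95% CI 19.9 to 25.5%) and, by a narrow margin, in *dcl4* plants (22.42%, 18.67 to 26.53%), against 26.54% of the intergenic bases, and that of chromosome 5 for *dcl4* plants (26.8%, 22.8 to 31.1%), against 22.7%.

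Distances to the nearest protein-coding gene are given by zone, since gene density differs between them. In the arms the median distance was 596 bp for *uvr3 phrI* (95% CI 385 to 786 bp), 322 bp for *ddb2* (268 to 394 bp), 487 bp for *dcl4* (399 to 591 bp), 427 bp for *ago1* (233 to 695 bp) and 335 bp for WT plants (281 to 377 bp), against 529 bp over all intergenic bases of the arms. Regions of *ddb2* and WT plants thus lay closer to genes than intergenic bases did, while the other intervals included the base value. Within 500 bp of a gene were 60.9% of the arm regions in *ddb2* (54.4 to 67.2%) and 60.8% for WT plants (57.0 to 64.5%), against 48.3% of arm bases. The same lists lay most often inside newer gene models. In the TAIR10.1 annotation a protein-coding gene covered the midpoint of 18.3% of the arm regions for *uvr3 phrI*, 29.2% for *ddb2* (23.4 to 35.5%), 18.5% for *dcl4*, 20.4% for *ago1* and 31.1% for WT plants (27.6 to 34.7%), against 14.5% of arm bases. The part of these models in the shorter distances was not tested.

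In the pericentromere all 5 lists lay farther from genes than intergenic bases did. The median distance was 21011 bp for *uvr3 phrI* (95% CI 7590 to 35313 bp), 18122 bp for *ddb2* (9105 to 32769 bp), 27585 bp for *dcl4* (13056 to 35184 bp), 8648.5 bp for *ago1* (5203 to 35101 bp) and 6778 bp for WT plants (4383 to 10384 bp), against 4089 bp over all intergenic bases of the pericentromere. Each interval lay above the base value, by a narrow margin for WT plants. The intervals count every listed region separately, although some overlap or cluster. Stretches of at least 10 kb without an annotated gene or TE held 26 of 98 of these regions for *uvr3 phrI*, 29 of 99 for *ddb2*, 48 of 141 for *dcl4*, 2 of 26 for *ago1* and 39 of 207 for WT plants. Pericentromeric distances without these stretches were not computed. More than 5 kb from any gene were 70.4% of the pericentromeric regions in *uvr3 phrI*, 75.8% for *ddb2*, 75.9% for *dcl4*, 76.9% for *ago1* and 56.0% for WT plants, against 46.6% of the bases. The most distant region of each list lay at 120304 bp for *uvr3 phrI*, 158778 bp for *ddb2*, 189773 bp for *dcl4*, 98237 bp for *ago1* and 185566 bp for WT plants, all on chromosome 5. Over both zones, restricting *ddb2* to a fold enrichment of at least 5 raised its median distance to 1433 bp, against 685 bp for all its regions.

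**Figure D4:**
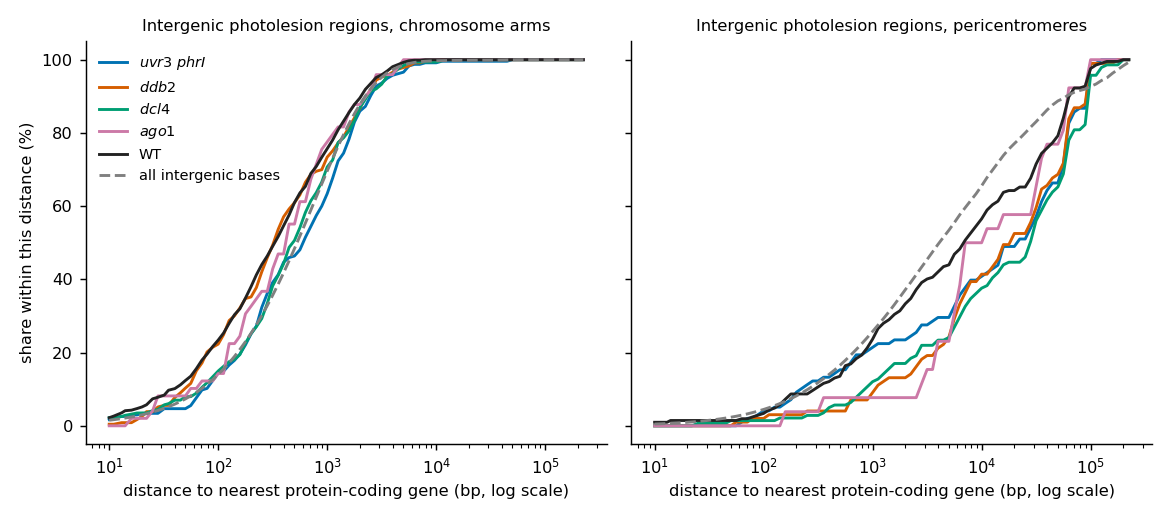
Share of intergenic photolesion regions (y axis, percent) within a given distance (x axis, bp, log scale) of the nearest protein-coding gene, in chromosome arms (left) and pericentromeres (right), one line per genotype, with all intergenic bases dashed. In the arms *ddb2* (median 322 bp) and WT (335 bp) run left of the dashed line (529 bp), and in the pericentromere the lines run right of it over most distances.

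In the arms, the median distance to the nearest annotated TE was below that of intergenic bases in all 5 lists, and the interval lay wholly below it in *dcl4* plants. The median distance to a TE in the arms was 1939 bp for *uvr3 phrI* (95% CI 1567 to 3130 bp), 2462 bp for *ddb2* (1796 to 3232 bp), 2071 bp for *dcl4* (1662 to 2740 bp), 1311 bp for *ago1* (607 to 2950 bp) and 2490 bp for WT plants (2012 to 3001 bp), against 2780 bp for arm bases. The other 4 intervals included the base value. The pericentromeric medians were 726 bp for *uvr3 phrI* (502 to 1471 bp), 957 bp for *ddb2* (577 to 1986 bp), 1572 bp for *dcl4* (763 to 2028 bp), 679.5 bp for *ago1* (358 to 1976 bp) and 506 bp for WT plants (420 to 661 bp), against 472 bp for bases. The intervals lay above the base value in *uvr3 phrI*, *ddb2* and *dcl4* plants.

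The nearest protein-coding gene pointed away from the region, so that the region lay on its 5′ side, in 60.96% of cases in *uvr3 phrI* (95% CI 55.5 to 66.2%), 63.0% for *ddb2* (57.5 to 68.2%), 55.4% for *dcl4* (50.7 to 60.01%), 62.7% for *ago1* (50.7 to 73.6%) and 61.4% for WT plants (58.10 to 64.6%), against 57.97% of intergenic bases. The lower bound in WT plants lay just above the base value, and the other intervals included it. The strand of 26719 of 27206 genes could be read from the reference, and 39 of 886 WT regions had a nearest gene without one. Between divergent genes lay 33.3% of the regions in *uvr3 phrI* (28.3 to 38.7%), 34.6% for *ddb2* (29.5 to 40.03%), 30.5% for *dcl4* (26.3 to 35.0%), 38.7% for *ago1* (27.6 to 50.6%) and 31.3% for WT plants (28.2 to 34.4%), against 30.8% of bases. These intervals include the base value. Between genes in tandem lay 44.4% of the regions for *uvr3 phrI* (39.03 to 49.96%), 43.98% for *ddb2* (38.6 to 49.5%), 46.6% for *dcl4* (41.9 to 51.3%), 45.3% for *ago1* (33.8 to 57.3%) and 46.4% for WT plants (43.1 to 49.7%), against 51.6% of bases, with intervals below the base value in all lists but *ago1*. The arrangement was unknown for 12.3% of the regions in *uvr3 phrI*, 11.1% in *ddb2*, 12.5% in *dcl4*, 6.67% in *ago1* and 9.59% in WT plants, against 5.60% of bases, and its part in the tandem shares was not tested. The shares above cover both zones. In the arms alone the tandem share was 47.2% for *uvr3 phrI* (40.7 to 53.8%), 49.8% for *ddb2* (43.2 to 56.4%), 54.5% for *dcl4* (48.8 to 60.1%), 46.9% for *ago1* (32.5 to 61.7%) and 50.1% for WT plants (46.2 to 53.9%), against 53.1% of arm bases. All of these arm intervals included the arm base value.

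Joining the members of all lists where they overlapped gave 1368 loci, of which 1035 were listed in 1 genotype (75.7%), 179 in 2, 77 in 3, 44 in 4 and 33 in all 5. All lists were made against the same input. Of the regions of each list, at least 50% of the length was covered by regions of another genotype in 57.7% of *uvr3 phrI* (95% CI 52.2 to 63.0%), 57.8% of *ddb2* (52.3 to 63.2%), 58.5% of *dcl4* (53.8 to 63.0%), 74.7% of *ago1* (63.3 to 84.0%) and 24.3% of WT regions (21.5 to 27.2%). Regions of the long WT list covered 47.7% of the *uvr3 phrI*, 51.2% of the *ddb2*, 50.5% of the *dcl4* and 65.3% of the *ago1* regions. Shared regions had a median fold enrichment of 5.36 for *uvr3 phrI*, 5.39 for *ddb2*, 5.07 for *dcl4*, 6.26 for *ago1* and 5.25 for WT plants, against 4.68, 4.49, 4.67, 4.999 and 4.49 for the others of the same lists.

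Of the 33 loci in all 5 lists, 10 held a tract of at least 20 nt. At these 10 the median of the highest fold enrichment was 11.9 for *uvr3 phrI*, 12.04 for *ddb2*, 10.4 for *dcl4* and 9.39 for *ago1*, against 8.97 for WT plants. The intervals overlapped, from 6.06 to 17.2 for *uvr3 phrI* and from 6.41 to 10.6 for WT plants. WT was lowest at 5 of them and highest at 2. At the other 23 loci the medians were 7.59 for *uvr3 phrI*, 7.35 for *ddb2*, 7.31 for *dcl4* and 6.61 for *ago1*, against 6.10 for WT plants, with WT lowest at 5 and highest at 4. The gap between the medians of mutants and WT at tract loci was wider at a higher minimum length. With at least 30 nt, 7 loci remained, with medians of 15.5 for *uvr3 phrI*, 15.2 for *ddb2*, 11.9 for *dcl4* and 11.6 for *ago1*, against 7.37 for WT plants. The 2 tract loci with WT highest had tracts of 20 nt near *ASL9*, where WT had 9.46, and of 21 nt near *ALDH22A1*, where WT had 10.12. The 5 with WT lowest were those near *NUB1*, AT3G30247, *NAC067*, *VFB1* and *SAUR26*. Near *VFB1*, a gene for an F-box protein, the values were 14.5 for *uvr3 phrI*, 15.2 for *ddb2*, 12.2 for *dcl4* and 7.85 for *ago1*, against 6.95 for WT plants. Near *SAUR26*, a member of an auxin-responsive gene family, they were 9.25, 9.81, 9.46 and 9.15 in the same mutants, against 6.41 for WT plants. The locus near AT1G65295, with a tract of 30 nt, had low values throughout, at 5.36 for *uvr3 phrI*, 4.76 for *ddb2*, 3.96 for *dcl4* and 5.43 for *ago1*, against 4.67 for WT plants. It and the loci near *ASL9* and *ALDH22A1* were chosen after their values had been seen. Near AT3G29639 a tract of 74 nt was listed in the 4 mutants and not in WT, with 14.2 for *uvr3 phrI*, 6.27 for *ddb2*, 8.36 for *dcl4* and 6.26 for *ago1*.

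The locus near AT3G41762 lay 2439 bp from an annotated rRNA gene on chromosome 3. Its fold enrichment was 7.33 for *uvr3 phrI*, 14.9 for *ddb2*, 7.94 for *dcl4* and 12.8 for *ago1*, against 5.38 for WT plants. Its longest tract measured 12 nt.

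Part of the clustering came from regions of the same list that overlapped each other. Another intergenic region of the same list lay within 10 kb of 34.2% of the *uvr3 phrI* (95% CI 29.1 to 39.6%), 31.6% of the *ddb2* (26.7 to 36.9%), 36.5% of the *dcl4* (32.1 to 41.1%), 42.7% of the *ago1* (31.3 to 54.6%) and 27.99% of the WT regions (25.1 to 31.1%). After overlapping regions of a list were merged, these shares were 25.6% for *uvr3 phrI*, 24.8% for *ddb2*, 22.6% for *dcl4*, 10% for *ago1* and 23.2% for WT plants. The merged lists hold 308, 310, 399, 60 and 852 regions in the same order, so the shares are not at a matched list size. Clustering was more frequent in the pericentromere, where 49.5% of the merged regions in *uvr3 phrI*, 58.0% for *ddb2*, 52.4% for *dcl4*, 19.0% for *ago1* and 40.5% for WT plants had a neighbour within 10 kb. In the arms these shares were 15.7% for *uvr3 phrI*, 11.7% for *ddb2*, 11.9% for *dcl4*, 5.13% for *ago1* and 18.1% for WT plants.

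The largest runs fell in the same places in different genotypes. Of all intergenic regions, 134 (6.44%) lay in 4 pericentromeric stretches without any annotated gene or TE, which together hold 0.187% of the intergenic bases and were singled out after the values had been seen. A run of 11 merged regions in *uvr3 phrI*, 12 for *ddb2* and 11 for *dcl4* plants, the largest run of each, lay in a stretch of 16.051 kb on chromosome 5 (chr5:11723226-11739276), which held 59 listed regions from all 5 genotypes. Their median fold enrichment there was 5.10 for *uvr3 phrI*, 5.42 for *ddb2*, 4.38 for *dcl4* and 3.31 for *ago1*, against 3.93 for WT plants. The largest WT run, of 14 regions, lay in a stretch of 22.1 kb on chromosome 4 (chr4:3965637-3987765), which held 7 regions of *uvr3 phrI*, 8 of *ddb2* and 12 of *dcl4* plants, against 14 of WT plants. In *ago1* plants the largest run had 2 members. None of the regions in the 4 stretches held a tract of at least 20 nt, and their median di-pyrimidine share ran from 26.3% to 27.6%. The chromosome 5 stretch of 16.051 kb held 1 exact match of the study's primers for the 180-bp centromeric repeat. Another of the 4 stretches (chr4:3997946-4015816) held 2, and the remaining ones held none. Over all stretches of at least 10 kb lay 8.11% of the *uvr3 phrI* (95% CI 5.41 to 11.6%), 8.73% of the *ddb2* (5.93 to 12.3%), 10.99% of the *dcl4* (8.27 to 14.2%), 2.67% of the *ago1* (0.325 to 9.30%) and 4.402% of the WT regions (3.15 to 5.97%), against 2.57% of intergenic bases. Without them the pericentromeric share was 23.5% for *uvr3 phrI*, 23.1% for *ddb2*, 22.96% for *dcl4*, 32.9% for *ago1* and 19.8% for WT plants, against 13.0% of the remaining bases.

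**Figure D5:**
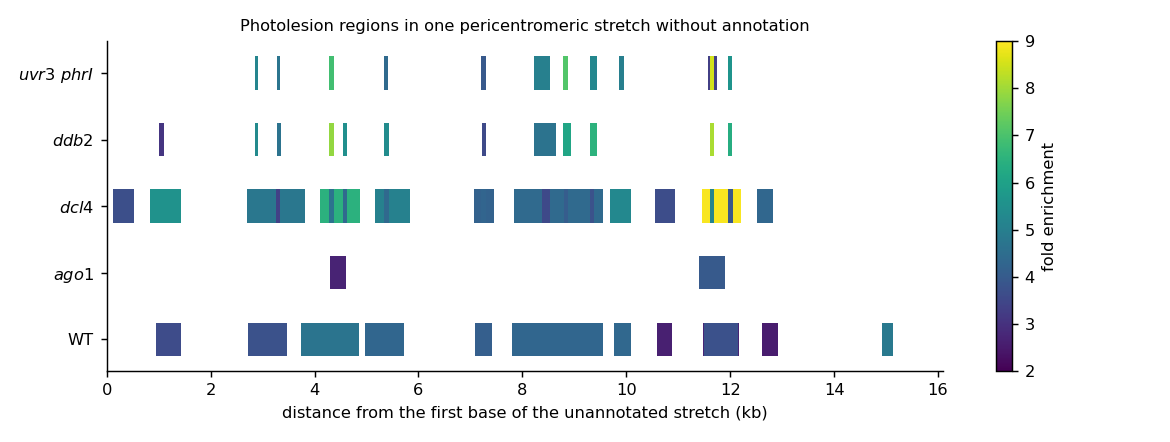
Intergenic regions of each genotype (rows) along the 16.051-kb chromosome 5 stretch without annotated genes or TEs, by distance from its first base (x axis, kb), coloured by fold enrichment from 2 to 9. Regions of *uvr3 phrI*, *ddb2*, *dcl4* and WT plants overlap at several places, those of *uvr3 phrI* and *ddb2* being mostly short and separate. In *ago1* plants there are 2 regions.

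Intergenic regions were compared with the regions of differential methylation (DMRs, 24h against time point 0) of the same genotype. At least 50% of the region was covered in 4 of *uvr3 phrI* (1.201%, 95% CI 0.328 to 3.05%), 10 of *ddb2* (3.01%, 1.45 to 5.47%), 8 of *dcl4* (1.76%, 0.762 to 3.43%), 2 of *ago1* (2.67%, 0.325 to 9.30%) and 7 of WT plants (0.790%, 0.318 to 1.62%). Among regions in genes and TEs the share was 1.95% for *uvr3 phrI* (1.04 to 3.31%), 3.72% for *ddb2* (2.54 to 5.23%), 3.73% for *dcl4* (2.53 to 5.28%), 5.43% for *ago1* (2.64 to 9.77%) and 0.371% for WT plants (0.178 to 0.680%), and the intervals overlapped those of intergenic regions in every genotype. Of all intergenic bases, DMRs covered 0.552% for *uvr3 phrI*, 2.31% for *ddb2*, 1.47% for *dcl4*, 0.606% for *ago1* and 0.349% for WT plants, and these values lay inside the intervals of intergenic regions in all genotypes. Some DMRs covered 2 overlapping regions, so that there were 4 distinct DMRs for *uvr3 phrI*, 9 for *ddb2*, 8 for *dcl4*, 1 for *ago1* and 6 for WT plants, all in the CHH context, which made up 89.1% to 99.8% of each whole list. Methylation was lower at 24h in all 4 of *uvr3 phrI*, against 84.7% of its whole DMR list, and in the 1 of *ago1*, against 47.96%. It was higher at 24h in all 9 of *ddb2*, against 96.5% of its list, in 6 of 8 of *dcl4*, against 95.1%, and in 5 of 6 of WT plants, against 55.5%. Whether these counts differ from the whole lists was not tested. Tract loci were among them. In WT plants, 2 overlapping regions at the *NUB1* tract shared a DMR with a CHH level of 4.76% at 24h, against 19.9% at time point 0. The AT3G30247 tract was in a DMR with 27.4% at 24h in *ddb2* plants, against 15.5% at time point 0, and in one with 7.88% at 24h in *ago1*, against 21.4% at time point 0. The highest fold enrichments among *uvr3 phrI* regions in a DMR were 7.88 near AT3G29630, with 2.11% CHH methylation at 24h against 16.2% at time point 0, and 7.62 near AT3G01015, with 0.693% at 24h against 12.4% at time point 0. In *dcl4* plants they were 6.54 near AT1G27880, at a tract of 164 nt, with 26.1% at 24h against 14.1% at time point 0, and 5.45 near AT2G10975, with 20.1% at 24h against 44.9% at time point 0. The number of reads per region behind these levels is not in the lists. For the whole libraries, the read statistics of the study list by far the fewest mapped bisulfite reads for WT plants at time point 0. The next fewest are those of *ddb2* plants at time point 0. The changes in WT plants thus rest on a baseline of much lower depth than their 24h values.

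Of the genes of DNA repair and of methylation, 0 or 1 per list and genotype was the nearest gene of an intergenic region. Of 20 genes of photolesion repair and UV response, 1 was nearest to a WT region and none to a mutant region. That gene was *CUL4*, a cullin of the ubiquitin ligase that works with DDB1 and DDB2, with a region 80 bp downstream at a fold enrichment of 4.38. Of 21 genes of DNA methylation and small RNA pathways, *VIM1*, needed for CG methylation, was nearest to a *uvr3 phrI* region at 812 bp with 3.68. *DML1*, also called ROS1, a DNA glycosylase that removes methylcytosine, was nearest to a *ddb2* region at 916 bp with 4.70, and *AGO1* to a *dcl4* region at 1914 bp with 5.77. Among all 27206 protein-coding genes, 0.956% were nearest to a region in *uvr3 phrI*, 0.959% for *ddb2*, 1.29% for *dcl4*, 0.213% for *ago1* and 2.84% for WT plants. The single genes made up 5.0% of the repair list for WT plants and 4.76% of the methylation list for *uvr3 phrI*, *ddb2* and *dcl4*. The other shares of these lists were 0%. With counts of 0 or 1 per genotype, no difference between these gene lists and all genes was detectable.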

How the data were processed

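IPOUD DNA was sequenced from leaves of 5 genotypes. Reads were placed on TAIR10 by the authors with Bowtie 1.1.2, allowing 2 mismatches and keeping reads with 1 place, and regions were called with MACS2 2.1. The deposited fold enrichment is the ratio of IP over the WT input. The deposited methylation levels are scores, read as the authors' fractions of methylated calls from BSMAP and given here as percentages, since no unit is stated with them. Genes and TEs were those of a small RNA table, and 60 columns of per-sample values in 6 such tables were not used.

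Regions were classed by midpoint. Sequence, strand and symbols came from TAIR10.1, whose chromosome lengths fit the lists, and all 28009 genes found by name overlapped their namesakes. Flanks of genes, tracts, merged lists and overlaps were computed with Python 3.11.15, numpy 2.4.6, pandas 2.3.3, scipy 1.17.1 and BLAST 2.17.0, and the distance and interval code was tested on simulated data. No test was run, with 1 list per genotype. Loci were named by rule: the 3 highest fold enrichments per genotype, the 10 strongest loci in 4 or 5 genotypes, the 2 strongest with a DMR, the largest runs, the farthest from a gene, listed genes and primer matches. Members, lists and measures were chosen with earlier results of these data known.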

Additional observations from a re-analysis of the deposited data

How the results depend on the processing

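Of 140 comparisons with an alternative, 87 differed from the reported value by less than its counting interval and 53 by more; the cause was not tested except where the alternative's construction shows it. No paired analysis was possible because each genotype had 1 list. Without regions touching a gene or TE by any base, the intergenic share was 28.93% for *uvr3 phrI*, 24.36% for *ddb2*, 30.87% for *dcl4*, 18.53% for *ago1* and 17.10% for WT plants. At a fold enrichment of at least 5, *ddb2* had an intergenic share of 38.22%, a pericentromeric share of 38.99% and a gene distance of 1433 bp, and WT a pericentromeric share of 19.41%. In the arms alone, gene distance was 596 bp for *uvr3 phrI*, 322 bp for *ddb2*, 487 bp for *dcl4*, 427 bp for *ago1* and 335 bp for WT plants, TE distance 2462 bp for *ddb2* and 2490 bp for WT, fold enrichment 4.79 for *ddb2*, and di-pyrimidine share 28.72% for *dcl4* and 28.69% for WT. Measured from the nearest region edge, the WT gene distance was 373.5 bp. With zones of 3 Mb on each side, pericentromeric shares were 41.14% for *uvr3 phrI*, 42.17% for *ddb2*, 38.68% for *dcl4* and 31.15% for WT. These zones are wider than those used above, so the 14.7% of intergenic bases is not a reference for these shares. Merging overlaps gave a pericentromeric share of 26.32% for *dcl4*, and clustered shares of 25.65% for *uvr3 phrI*, 24.84% for *ddb2*, 22.56% for *dcl4*, 10% for *ago1* and 23.24% for WT. The WT clustered share was 22.80% within 5 kb and 36.23% within 20 kb. Without stretches of at least 10 kb, an alternative chosen after seeing the data, pericentromeric shares were 23.53% for *uvr3 phrI*, 23.10% for *ddb2*, 22.96% for *dcl4* and 19.83% for WT, and the *dcl4* gene distance 690 bp. The mean fold enrichment was 5.498 for *uvr3 phrI*, 5.318 for *ddb2*, 5.261 for *dcl4*, 6.484 for *ago1* and 4.855 for WT. Regions shared with another genotype by at least 1 bp were 63.25% for *ddb2* and 32.28% for WT. Among alternatives also chosen after seeing the data, tracts of at least 15 nt were in 21.92% of *uvr3 phrI*, 18.67% of *ddb2*, 24.84% of *dcl4*, 44% of *ago1* and 39.28% of WT regions, and tracts of at least 30 nt in 3.904% of *uvr3 phrI*, 6.024% of *ddb2*, 4.835% of *dcl4* and 3.950% of WT regions. The fold enrichments carry no read numbers, so the depth behind single regions limits every value.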

Other observations

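Newer gene models cover part of the intergenic regions. In the TAIR10.1 annotation, a protein-coding gene covered the midpoint of 14.4% of the *uvr3 phrI* (95% CI 10.8 to 18.7%), 20.8% of the *ddb2* (16.5 to 25.6%), 13.2% of the *dcl4* (10.2 to 16.6%), 13.3% of the *ago1* (6.58 to 23.2%) and 24.5% of the WT regions (21.7 to 27.5%), against 13.1% of intergenic bases. Matches of at least 50 bp to the organelle genomes were found in 3 *ddb2*, 1 *dcl4* and 3 WT regions. Exact primer matches to the 180-bp repeat were found in 1 *dcl4* region with a fold enrichment of 4.97 and 1 WT region with 6.86, and to 5S rDNA in none.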
